A study of Mus musculus with 8 samples.

Results

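The 10 genes described here encode proteins of endothelial cell junctions and of the endothelial cell surface: Cdh5, Pecam1, Cldn5, Esam, Emcn, Cd34, Eng, Icam2, Plvap and Clec1a. They are 10 of 55291 gene symbols counted in ventricular tissue of mouse embryos. Of these, 8 were chosen for their role, and Clec1a and Cd34 were picked by their measured rise in the knockout, so their difference between the groups is given as a description without a test. RNA from E10.5 (embryonic day 10.5) ventricles was sequenced in 8 libraries. The 4 cKO libraries came from Pkn2 fl/fl embryos carrying XMLC2-Cre, a transgene that deletes the floxed exon 8 of Pkn2 in cardiomyocytes, and the 4 control libraries from Cre-negative Pkn2 fl/fl littermates. All lines were kept on a C57BL/6N background, and both groups carried 2 floxed alleles, the controls without Cre. The study's methods take replicates to be animals or embryos, and the RNA protocol mentions no pooling. The comparison asks which transcripts differ at a stage when the mutant heart was still like its littermates by eye. The Cre is driven in cardiomyocytes, so endothelial cells were not its target, and deletion in them was not measured here.

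Endothelial cells seal a vessel through junctions between neighbours. Adherens junctions are built on VE-cadherin, which binds its like on the next cell and holds catenins inside the cell, and tight junctions are built on claudins. In the E10.5 ventricle most endothelial cells are endocardium, the layer that lines the lumen and covers the trabeculae, and the coronary plexus is only starting to form. Several surface proteins of the endothelium are shared with blood: PECAM1, ESAM, ICAM2, endoglin and CD34 are also carried by platelets, leukocytes or blood progenitors.

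Libraries held 47559845 to 56197203 counts in cKO and 47653972 to 56660938 in control, so that counting error was small for all members but Cldn5 and Clec1a, whose libraries held as few as 34 and 15 counts. Pkn2 itself was at 77.6 to 84.3 CPM (counts after scaling for library size) in the cKO and at 133 to 153 CPM in the control libraries, which did not overlap. The defining endothelial markers were present in every library. The 10 reference genes Kdr, Flt1, Tie1, Tek, Egfl7, Erg, Sox18, Nos3, Ramp2 and Calcrl summed to 962 to 1165 CPM in cKO and 779 to 893 CPM in controls. Cardiomyocyte markers summed to 38060 to 41570 and 38070 to 42280 CPM. Control replicate 1 stood apart in 1 respect, with 27.7 CPM of summed hepatic markers against 1.27 to 5.41 CPM in the other 7 libraries, and Alb and Serpina1a in this list had only 2 counts each in all. Epicardial markers were higher in 1 and lower in 5 of 6 genes, cushion mesenchyme markers higher in 4 and lower in 2 of 6, and epithelial markers higher in 1 and lower in 5 of 6, with 0 of these genes past the adjusted threshold of edgeR and 2, 0 and 1 at an unadjusted p under 0.05. Hepatic markers were lower in cKO in 5 of 5 genes tested, with 0 past the threshold and 4 at an unadjusted p under 0.05. Of all 26820 genes tested, 3436 were at an unadjusted p under 0.05 in edgeR, to be read beside each such count here and below.

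The stretches before the start sites of Cd34, Emcn, Eng and Cldn5 are shown because they are the 4 members with a window in the RefSeq table used here. They were searched for the letters of an ETS motif, the site of a transcription factor family known in endothelial cells, among others. Each is the 250 bases before the RefSeq start on GRCm38.p6, read from 5′ to 3′ on the plus strand. They cover chr1:194938571-194938820 for Cd34, chr3:137340828-137341077 for Emcn, chr2:32646345-32646594 for Eng and chr16:18776597-18776846 for Cldn5. Capitals mark the ETS letters AGGAAG or CGGAAG on either strand.
Cd34: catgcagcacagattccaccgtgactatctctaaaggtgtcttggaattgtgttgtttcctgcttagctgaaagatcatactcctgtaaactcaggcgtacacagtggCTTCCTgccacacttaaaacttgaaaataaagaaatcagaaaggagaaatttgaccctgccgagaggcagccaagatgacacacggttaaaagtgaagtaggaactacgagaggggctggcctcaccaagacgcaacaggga
Emcn: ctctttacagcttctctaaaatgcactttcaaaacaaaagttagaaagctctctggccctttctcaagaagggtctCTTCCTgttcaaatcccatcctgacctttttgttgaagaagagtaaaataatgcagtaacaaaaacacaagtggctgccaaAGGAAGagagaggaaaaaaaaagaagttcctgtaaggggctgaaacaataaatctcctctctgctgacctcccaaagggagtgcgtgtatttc
Eng: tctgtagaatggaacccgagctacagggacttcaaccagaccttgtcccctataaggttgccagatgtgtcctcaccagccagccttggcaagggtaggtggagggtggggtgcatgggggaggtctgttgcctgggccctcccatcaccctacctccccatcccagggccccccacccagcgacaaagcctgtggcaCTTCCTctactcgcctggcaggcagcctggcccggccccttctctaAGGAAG
Cldn5: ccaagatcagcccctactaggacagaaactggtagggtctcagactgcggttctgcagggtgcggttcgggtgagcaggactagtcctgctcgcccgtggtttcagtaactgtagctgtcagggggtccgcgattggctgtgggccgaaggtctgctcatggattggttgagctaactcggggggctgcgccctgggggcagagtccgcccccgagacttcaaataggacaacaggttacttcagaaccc
Sequences of the other 6 members were not used here. The ETS letters occurred once in the Cd34 window, 142 bases before the start, and at 2 places in each of the Emcn window (174 and 93 bases before) and the Eng window (52 and 6 bases before). The Cldn5 window held none. Of all 32851 windows of this length in the table, 39.2% held an ETS motif, so its presence is common. The SOX letters AACAAT, found in 9.42% of all windows, occurred in the Emcn window 50 bases before the start. The GATA factor letters AGATAA or TGATAA (16.6% of all windows), the KLF letters CACACCC (6.93%) and the TATA box letters TATAAA (12.4%) were in none of the 4, with both strands read in each case. The windows also differed in base composition, with 40.8% G and C in Emcn, 46.4% in Cd34, 59.6% in Cldn5 and 62.4% in Eng, where the median of all windows was 52.4%. A match of letters is a description of the sequence and shows no binding.

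Levels that also account for gene length (TPM) spread the members over a wide range. In control ventricles Plvap was highest at 146 ± 18.1 TPM (mean ± SD, n = 4), and its libraries lay above those of every other member. Then came Eng (106 ± 10.6), Cdh5 (94.0 ± 13.8), Pecam1 (69.96 ± 5.22), Emcn (67.9 ± 4.28), Cd34 (58.4 ± 1.76), Icam2 (58.1 ± 2.47) and Esam (32.8 ± 2.90 TPM). The ranges of Eng and Cdh5, of Cdh5 and Pecam1, of Pecam1 and Emcn, and of Cd34 and Icam2 overlapped. Within each control library Eng still lay above Cdh5, and Cdh5 above Pecam1. The order of Pecam1 and Emcn, and that of Cd34 and Icam2, changed between libraries and was not resolved. Cldn5 (0.995 ± 0.343 TPM) and Clec1a (0.162 ± 0.0534 TPM) stood far below, with the libraries of Cldn5 all above those of Clec1a. Transcript of claudin-5, a tight junction claudin of mature vessels, was thus scarce where that of VE-cadherin was abundant. In cKO ventricles the order was Plvap (164 ± 21.6), Eng (139 ± 26.0), Cdh5 (138 ± 23.0), Emcn (116 ± 28.5), Cd34 (101 ± 30.6), Pecam1 (99.2 ± 19.4), Icam2 (81.2 ± 12.4), Esam (43.3 ± 6.09), Cldn5 (2.63 ± 1.52) and Clec1a (1.21 ± 1.02 TPM). From Plvap to Icam2 neighbours in this order overlapped, as did Cldn5 and Clec1a, while Icam2 lay above Esam and Esam above Cldn5 without overlap. Summed over the 10 members, the level was 738 to 1041 TPM in cKO libraries and 566 to 674 TPM in control libraries. This sum includes Cd34 and Clec1a, picked for their rise, so part of its difference follows from that choice.

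The comparison of cKO with control was made by edgeR's quasi-likelihood test over 26820 genes. All 8 members chosen for their role were higher in cKO, and 4 of them rose past an adjusted p of 0.05 (Benjamini-Hochberg over all genes tested): Cdh5, Pecam1, Emcn and Icam2. Over all genes, 49.8% were higher in cKO, 0.515% passed in this direction and 0.343% passed in the other. The 8 were chosen with earlier results of these data known, so the shares set beside them are a description and no test of the list. In 5 of the 8 the lowest cKO library exceeded the highest control library, as was so for 3.14% of all genes. The median log2 fold change of the 8 was 0.47, beside −0.00085 for all genes tested. In bulk tissue a larger share of endothelial cells and more RNA per endothelial cell cannot be told apart. The calls depended on single libraries. Without cKO replicate 1, or without any 1 of the 4 control replicates, 0 of the 8 passed in edgeR (7 or 8 at an unadjusted p under 0.05), while 2 passed without cKO replicate 4, 5 without cKO replicate 2 and 7 without cKO replicate 3. Calls over all genes moved as well, from 230 to 71 without cKO replicate 1. They were 67, 135, 87 and 69 without control replicates 1 to 4. Without cKO replicates 4, 2 and 3 they were 231, 284 and 744. The number called also moved with the test, to 7 with DESeq2 and 0 with limma on log2 TPM (7 at an unadjusted p under 0.05). An unadjusted p under 0.05 was common over all genes, at 2563 of 26316 in edgeR without cKO replicate 1. Without control replicates 1 to 4, 2776, 3049, 2901 and 2758 genes had one. With limma on log2 TPM it was 3030 and 3079 of 26750 genes, for pseudocounts of 1 and 0.1.

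**Figure D1:**
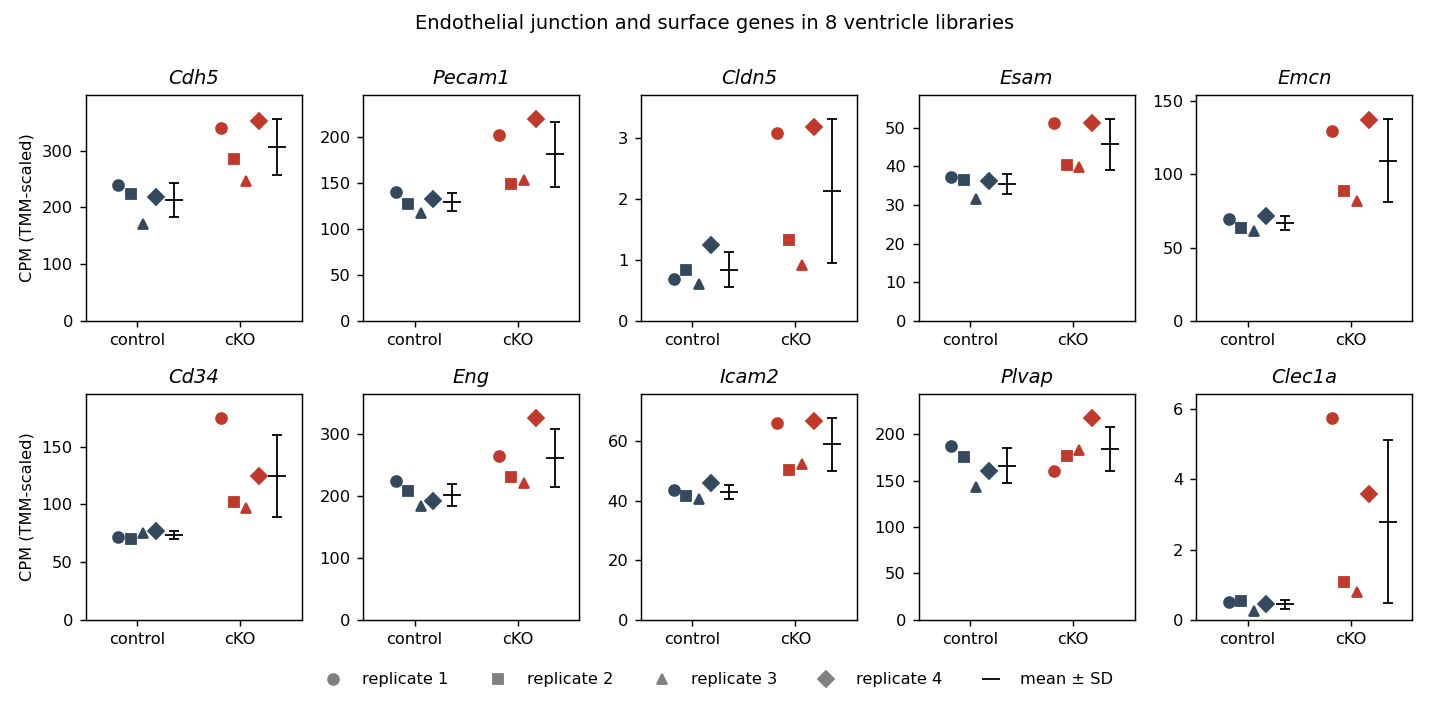
Level of each member (CPM, vertical axis from 0) in the 4 control and 4 cKO libraries, with a marker shape per replicate and the mean ± SD of each group. Replicates 1 and 4 of cKO sit highest in 9 of the 10 panels, and only the Cldn5, Eng and Plvap panels show groups that overlap.

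The adherens junction gene of the set rose. Cdh5 (ENSMUSG00000031871, GRCm38 chr8:104101625-104144511) encodes VE-cadherin. It was measured at 339, 286, 247 and 353 CPM in cKO replicates 1 to 4 and at 239, 224, 171 and 218 CPM in control replicates 1 to 4. The groups did not overlap, but cKO replicate 3 lay only slightly above control replicate 1. The log2 fold change came to 0.53 with a standard error of 0.11 (edgeR, adjusted p = 0.0303). Pecam1 (ENSMUSG00000020717, GRCm38 chr11:106654217-106750628), an immunoglobulin-family adhesion molecule that binds its like across the junction, stood at 202, 149, 154 and 220 CPM in cKO libraries, against 141, 127, 117 and 133 CPM in controls. Again the groups did not overlap, with cKO replicates 1 and 4 well apart from the other pair. Its log2 fold change came to 0.48 with a standard error of 0.11 (edgeR, adjusted p = 0.0404).

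The tight junction genes were higher without passing the threshold. Esam (ENSMUSG00000001946, GRCm38 chr9:37528078-37538319) encodes an immunoglobulin-family protein found at endothelial tight junctions and on platelets. Its libraries held 51.4, 40.2, 39.8 and 51.3 CPM in cKO and 37.4, 36.5, 31.5 and 36.2 CPM in controls, without overlap (log2 fold change 0.37, standard error 0.090, adjusted p = 0.0699). Cldn5 (ENSMUSG00000041378, GRCm38 chr16:18776847-18778262) was rare, with 156, 64, 44 and 179 counts in cKO and 37, 40, 34 and 62 counts in control libraries. These were 3.10, 1.33, 0.912 and 3.20 CPM in cKO and 0.684, 0.830, 0.601 and 1.24 CPM in controls. The third cKO replicate lay below control replicate 4, so the groups overlapped. The log2 fold change was large but uncertain, at 1.35 with a standard error of 0.36 (edgeR, adjusted p = 0.0951).

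Emcn and Cd34 encode sialomucins, heavily glycosylated proteins of the luminal surface, and Emcn rose. Emcn (ENSMUSG00000054690, GRCm38 chr3:137341067-137432185) encodes endomucin, a marker of endocardium and of veins and capillaries. It stood at 130, 88.5, 81.8 and 138 CPM in cKO replicates 1 to 4, and 69.7, 63.5, 61.5 and 71.9 in control replicates 1 to 4. All 4 cKO libraries were above the controls, and the control libraries were close to each other. Its log2 fold change came to 0.72 with a standard error of 0.13 (edgeR, adjusted p = 0.0178). Emcn lies on the chromosome of Pkn2, 5.36 Mb away. Cd34 (ENSMUSG00000016494, GRCm38 chr1:194938819-194961279), carried by endothelium and by blood progenitors, stood at 175, 102, 96.7 and 125 CPM in the 4 cKO and 71.5, 70.1, 75.5 and 77.3 CPM in the 4 control libraries. Its controls were the tightest of the 10 genes on the log2 scale (SD 0.066), and cKO replicate 1 lay far above the rest. The log2 difference, for which the gene was picked, was 0.76 (standard error 0.13) and fell to 0.56 without cKO replicate 1. A gene on the opposite strand, Gm16897, overlaps 5521 bases of Cd34 and averaged 1.38 CPM in cKO libraries and 0.584 CPM in control libraries. The strand setting of the counting is not given in the sources used here, so reads of the pair may not be told apart.

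Among receptors and leukocyte ligands, Icam2 rose and Eng did not pass the threshold. Icam2 (ENSMUSG00000001029, GRCm38 chr11:106377656-106382781) encodes a ligand of the leukocyte integrin LFA-1 and lies 271 kb from Pecam1. It stood at 66.4, 50.4, 52.5 and 66.7 CPM in cKO libraries, against 43.6, 41.7, 40.8 and 46.0 CPM in controls, with no overlap (log2 fold change 0.46, standard error 0.087, adjusted p = 0.0214). Eng (ENSMUSG00000026814, GRCm38 chr2:32646595-32682669) encodes endoglin, a co-receptor for BMP9 and BMP10. It stood at 266, 232, 222 and 326 CPM in cKO replicates 1 to 4, and 224, 208, 184 and 192 in control replicates 1 to 4. The third cKO replicate lay just below control replicate 1, and cKO replicate 4 far above all others. The log2 fold change came to 0.37 with a standard error of 0.10 (edgeR, adjusted p = 0.0981) and 0.25 without cKO replicate 4. Fpgs, on the opposite strand, shares 61 bases with Eng and averaged 29.5 CPM in cKO libraries and 27.6 CPM in control libraries.

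Plvap, with the highest mean TPM in both groups, had the smallest log2 fold change of the 10. Plvap (ENSMUSG00000034845, GRCm38 chr8:71497765-71511752) encodes the protein of the diaphragms that span fenestrae and caveolae. It stood at 160, 176, 183 and 217 CPM in the 4 cKO and 187, 175, 143 and 161 CPM in the 4 control libraries. The groups overlapped over most of their range, and cKO replicate 1, which was high for the other members, held the lowest cKO value. The log2 fold change came to 0.15 with a standard error of 0.091 (edgeR, adjusted p = 0.556), and 0.07 without cKO replicate 4.

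Clec1a (ENSMUSG00000033082, GRCm38 chr6:129424772-129452000) encodes a C-type lectin-like receptor known from endothelial and myeloid cells. It had 289, 52, 38 and 201 counts in cKO and 28, 26, 15 and 23 counts in control libraries. In CPM these were 5.73, 1.08, 0.788 and 3.59 in cKO and 0.517, 0.539, 0.265 and 0.461 in controls. The groups did not overlap, but the spread among cKO libraries was the widest of the 10 members (SD 1.34 on the log2 scale, against 0.88 for Cldn5, the next). The log2 difference, for which the gene was picked, was 2.66 (standard error 0.51) and 2.05 without cKO replicate 1.

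The neighbours of Clec1a in the C-type lectin cluster of chromosome 6 were read from the same libraries. Clec9a, known from dendritic cells, lies tail to tail with Clec1a, whose annotated end begins 9 bases after that of Clec9a. It stood at 4.43, 1.54, 0.850 and 5.46 CPM in cKO libraries, against 0.628, 1.14, 0.777 and 0.601 CPM in controls. The same 2 cKO replicates were high as for Clec1a, but the groups overlapped (log2 fold change 1.97, standard error 0.45, adjusted p = 0.0505). Clec1b, the platelet receptor for podoplanin, lies beyond Clec9a, 19.4 kb from Clec1a, and it rose (log2 fold change 1.67, standard error 0.36, adjusted p = 0.0380, edgeR). It stood at 6.75, 3.37, 2.99 and 10.2 CPM in cKO replicates 1 to 4, and 1.24, 3.13, 1.36 and 1.66 in control replicates 1 to 4, with cKO replicate 3 below control replicate 2. Clec7a, on the other side of Clec1a, ranged over 0.187 to 0.695 CPM among cKO and 0.141 to 0.249 CPM among control libraries (adjusted p = 0.337). Clec12b, further off, had values in the opposite direction, with 0.0416 to 0.125 CPM among cKO and 0.247 to 0.481 CPM among control libraries, without overlap (log2 fold change −1.72, adjusted p = 0.114). With 93 counts over the 8 libraries it rests on few reads. Olr1, beyond Clec7a, ranged from 0.0415 to 1.46 CPM among cKO libraries and from 0.240 to 0.407 CPM among controls (adjusted p = 0.213).

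**Figure D2:**
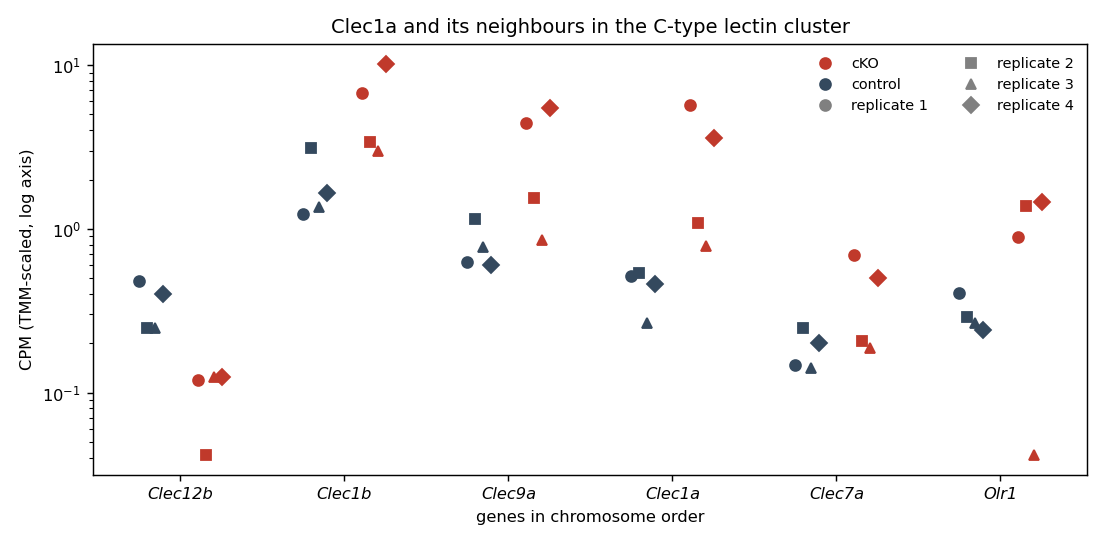
Level of Clec1a and of 5 genes of the same cluster (CPM, log axis) in control and cKO libraries, with genes in their order along chromosome 6 and a marker shape per replicate. Replicates 1 and 4 of cKO are the highest libraries for Clec1b, Clec9a, Clec1a and Clec7a, while Clec12b is lower in every cKO library.

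Most members had the same highest and lowest libraries. For 9 of the 10, all but Plvap, the 2 highest libraries were cKO replicates 1 and 4. For 9 of the 10, all but Cd34, the lowest library was control replicate 3. Cd34 and Clec1a were picked for their rise, so cKO libraries at their top follow in part from that choice. The share of all genes with these same libraries at the top or bottom was not counted. Joint variation beyond the difference between the groups was not tested. Relative to the control mean, the mean log2 level of the 9 members other than Clec1a was 0.77, 0.33, 0.23 and 0.83 in cKO replicates 1 to 4 and 0.06, 0.01, −0.17 and 0.10 in control replicates 1 to 4. The SD of log2 CPM was larger among cKO than among control libraries for all 10 members. As whole libraries, pairs of cKO libraries differed by a chi-square of 14.5 to 39.1 per degree of freedom, and control pairs by 12.0 to 21.3. The share of all genes with a larger SD in cKO was not counted, so the wider spread is not shown to be particular to the members.

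The genes whose profile over the 8 libraries lay closest to that mean were found among 11236 genes with a mean of at least 5 CPM, by the root mean square difference of log2 levels relative to the control mean. The closest was Adgrf5, an adhesion receptor of endothelium (0.048), followed by Flt1, the VEGF receptor 1 gene (0.072), Sgk1 (0.077), Dennd3 (0.080), Exoc3l2 (0.081), Eno2 (0.089), Cd93 (0.095), Thsd1 (0.098), Tnfrsf12a (0.104) and Nova2 (0.106). Adgrf5 and Flt1 stand in the endothelial surface list used below, and Cd93 in the C-type lectin list. The genes closest to Clec1a, among 15951 with a mean of at least 0.5 CPM, were C1qc (0.376), C1qb (0.447), Pcdh17 (0.487), Spn (0.489) and Casp4 (0.536). C1qc and C1qb encode complement chains made by macrophages, and Spn encodes the leukocyte surface protein CD43. This closeness is a description over 8 libraries and includes the difference between the groups. Clec1a was picked for that difference, so genes with a rise of similar size lie close to it by construction. The cells in which Clec1a was transcribed were not tested.

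To ask whether a member differed beyond other endothelial genes, its log2 CPM was set against the mean of the 10 reference genes in the same library. The reference itself was higher in cKO, by 0.42, 0.16, 0.18 and 0.47 on the log2 scale relative to the control mean. Emcn exceeded it, with log2 ratios of 0.16 to 0.63 in cKO and −0.06 to 0.11 in controls, which did not overlap. With 4 libraries a side no exact p can fall under 0.0286. The Emcn difference was 0.37 (exact p = 0.0286 by two-sided permutation over samples, adjusted p = 0.152 over the 8 members). Cdh5 differed by 0.22 (exact p = 0.0571, adjusted p = 0.152) and Icam2 by 0.14 (exact p = 0.0571, adjusted p = 0.152), and Pecam1 by 0.16 (exact p = 0.0857, adjusted p = 0.171). Esam and Eng kept nearly the ratio of the controls, with differences of 0.05 each (exact p = 0.200 and 0.571). Cldn5 differed by 0.86, with ratios that overlapped between the groups (exact p = 0.143). Plvap was lower relative to the reference, by −0.16, and the groups overlapped (exact p = 0.229). None of the 8 passed the adjusted threshold, with 1 of them, Emcn, at an unadjusted exact p under 0.05. A single gene at the floor of 0.0286 could not pass after adjustment over 8 members, so this outcome separates no member from the others. For Cd34 and Clec1a, given as values alone, the log2 differences were 0.41 and 1.85, and neither gene's ratios overlapped between the groups. With the other members chosen for their role in place of the reference genes, an alternative added after the data were seen, the differences were 0.18 for Emcn, 0.0046 for Cdh5, −0.06 for Pecam1, −0.08 for Icam2 and −0.18 for both Esam and Eng.

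**Figure D3:**
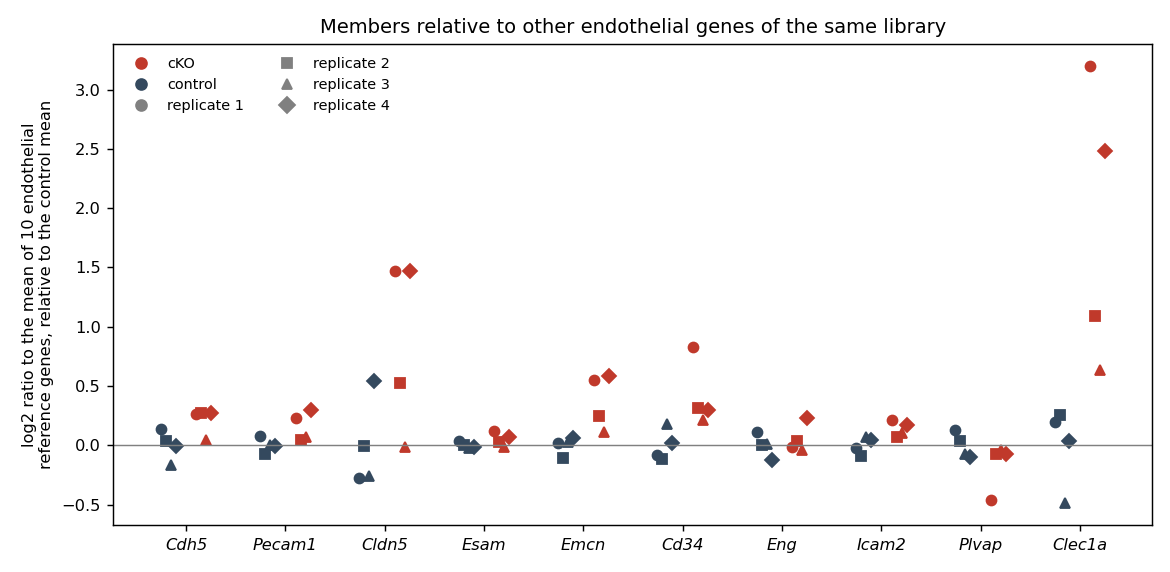
Log2 ratio of each member to the mean of 10 endothelial reference genes in the same library, set to the control mean of that member, for control and cKO libraries with a marker shape per replicate. Clec1a, Cd34 and Emcn lie above the controls in every cKO library, Esam stays near 0, and Plvap in cKO replicate 1 lies lowest of its libraries.

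The partners of these proteins were examined by lists chosen for function. Of 10 adherens junction partners, 8 were higher in cKO and 1 rose past the threshold, with a median log2 fold change of 0.05. The gene that rose was Ptprb, which encodes VE-PTP, the endothelial phosphatase that binds VE-cadherin. It stood at 91.1, 64.7, 50.3 and 71.3 CPM in the 4 cKO and 37.4, 48.5, 46.6 and 45.6 CPM in the 4 control libraries, without overlap (log2 fold change 0.64, standard error 0.13, adjusted p = 0.0292). The catenin genes, which cardiomyocytes also use, gave log2 fold changes of 0.03 (Ctnna1), 0.06 (Ctnnb1), 0.08 (Ctnnd1) and 0.07 (Jup), with adjusted p from 0.642 to 0.884. Cdh2, the N-cadherin of cardiomyocytes, gave −0.19 (adjusted p = 0.139). Of 14 other tight junction genes, 9 were higher and 5 lower, with 0 past the threshold in edgeR (4 at an unadjusted p under 0.05). Their median was 0.06, with F11r at 0.17 (adjusted p = 0.160) and Ocln at 0.72 (adjusted p = 0.387).

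Of 6 sialomucin and selectin genes, 4 were higher and 2 lower, and 1 passed the threshold, with a median of 0.57. The sialomucin relative Podxl gave 0.04 (adjusted p = 0.889), and Cd164 fell, from 188 to 155 CPM (log2 fold change −0.28, standard error 0.062, adjusted p = 0.0465). Podxl2 gave −0.10 (adjusted p = 0.799, edgeR). The genes Sele, Selp and Selplg were rare, with 146, 29 and 117 counts in all. The median lies between Podxl and these rare genes, which had the largest fold changes of the list. Of 6 caveola genes, the setting in which PLVAP also works, 3 were higher and 3 lower with a median of 0.01, and 0 passed (3 at an unadjusted p under 0.05). Cav1 gave −0.44 (adjusted p = 0.301) and Cavin3 0.28 (adjusted p = 0.0564).

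Of 12 endoglin partners, 8 were higher and 4 lower, with a median of 0.06 and 0 past the threshold in edgeR (1 at an unadjusted p under 0.05). Acvrl1, the receptor that signals with endoglin, was at 0.41 (adjusted p = 0.289), its ligand gene Bmp10, made by trabecular cardiomyocytes, at 0.05 (adjusted p = 0.901), and the response genes Id1 and Id3 at −0.12 (adjusted p = 0.770) and 0.07 (adjusted p = 0.838). Of 7 leukocyte adhesion genes tested, 5 were higher and 2 lower, with a median of 0.56. Itgb2, the chain that ICAM2's integrin partner uses, rose from 1.80 to 3.65 CPM (log2 fold change 1.03, adjusted p = 0.0326). Vcam1, an adhesion receptor also made by embryonic myocardium, fell. It stood at 50.9, 54.2, 52.8 and 52.4 CPM in cKO libraries, against 84.9, 91.9, 90.8 and 113 CPM in controls, a log2 change of −0.86 ± 0.076 (SE, edgeR adjusted p = 7.50e-05), and its cKO replicates 1 and 4 did not stand apart.

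Of 20 other endothelial surface genes, 17 were higher and 3 lower, with a median of 0.28. Past the threshold were 5, all higher: Flt1 (0.50, adjusted p = 0.0484), Tie1 (0.41, adjusted p = 0.0477), Calcrl (0.39, adjusted p = 0.0249), Adgrf5 (0.52, adjusted p = 0.0328) and the scavenger receptor gene Stab1 (0.81, adjusted p = 0.0214). Flt1, Tie1 and Calcrl also stand in the endothelial reference, of whose 10 genes all were higher and these 3 passed. The other 3 lay below 0. S1pr1, Gja5 and Lyve1, which encode a sphingosine phosphate receptor, connexin 40 and a hyaluronan receptor, gave −0.02, −0.04 and −0.34 (adjusted p = 0.943, 0.893 and 0.456). In the wider list of 10 C-type lectin genes, 7 were higher and 3 lower, and 1, Clec1b, passed. Its median of 0.84 includes 4 rare genes, with at most 216 counts in all, of which Clec12a had 24. Cd93 gave 0.58 (adjusted p = 0.0516), Clec14a 0.56 (adjusted p = 0.107) and Thbd −0.16 (adjusted p = 0.708).

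**Figure D4:**
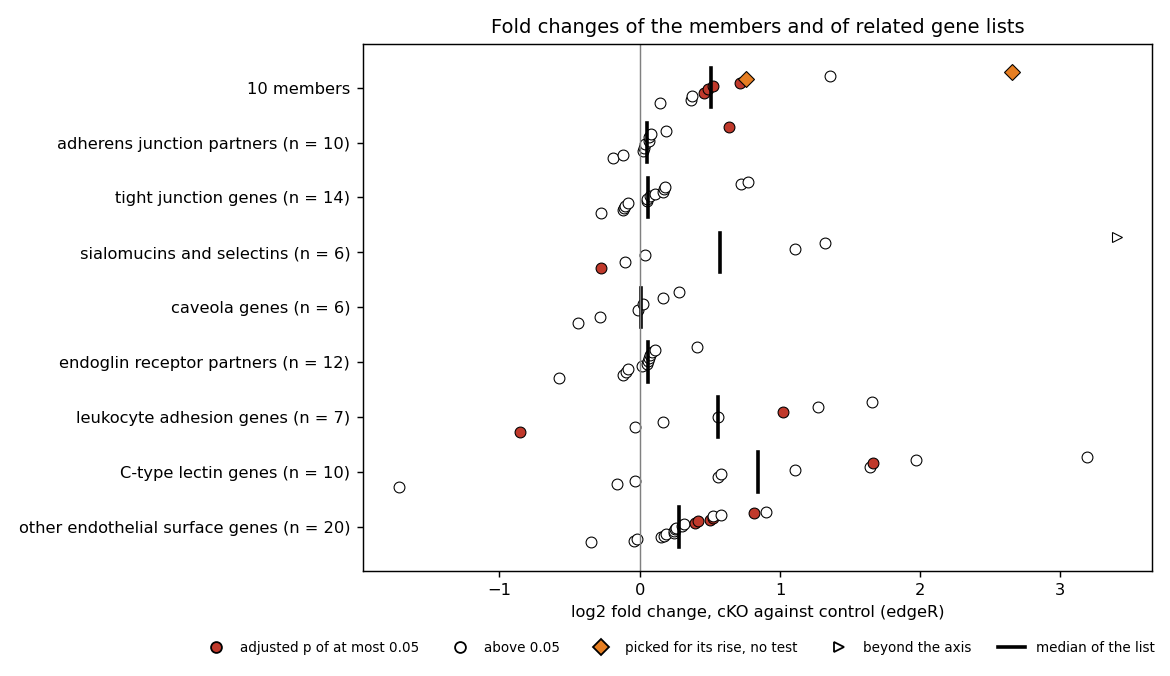
Log2 fold change of cKO against control (edgeR) for the 10 members and 8 lists of related genes, 1 point per gene, filled where the adjusted p was at most 0.05, with diamonds for Cd34 and Clec1a, a bar at each median and Selp, absent from the control libraries, beyond the axis. The medians are 0.01 to 0.06 for the adherens junction, tight junction, caveola and endoglin lists, 0.28 for the endothelial surface list, and 0.56, 0.57 and 0.84 for the leukocyte adhesion, sialomucin and selectin, and C-type lectin lists. The rare genes Sele, Selp and Selplg raise the sialomucin and selectin median.

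Markers of blood cell types were measured in the same libraries. All 8 macrophage markers were higher in cKO, and C1qb and C1qc rose past the threshold. Their summed level was 11.3 to 33.7 CPM in cKO and 6.96 to 10.8 CPM in controls, without overlap and highest in cKO replicates 1 (33.7) and 4 (19.7). All 8 megakaryocyte and platelet markers were higher, with 0 past the threshold in edgeR (7 at an unadjusted p under 0.05). They summed to 77.2, 62.5, 43.5 and 139 CPM in cKO and to 29.2, 67.3, 31.9 and 27.2 CPM in controls, so that control replicate 2 lay above 2 of the cKO libraries. Its defining genes were Itga2b, with 20.4 to 61.0 CPM among cKO and 12.4 to 28.2 CPM among control libraries, and Pf4, at 8.85 to 30.4 CPM and 5.01 to 14.9 CPM, while Gp1bb held 15 counts in all. All 7 blood progenitor markers were higher, and Spn passed. They summed to 48.7 to 77.8 CPM in cKO and 38.2 to 50.1 CPM in controls, and the general leukocyte gene Ptprc was at 0.560 to 2.28 CPM against 0.0370 to 0.498 CPM. All 7 erythroid markers were higher with 0 past the threshold and 0 at an unadjusted p under 0.05, and their sums overlapped, at 1022 to 3747 and 1161 to 3666 CPM. The part of blood cells in the levels of Pecam1, Esam, Icam2, Eng, Cd34 and Clec1a was not tested. Of 4 endocardial markers 3 were higher and Nfatc1 passed, with means of 82.9 CPM for cKO and 64.6 CPM for control libraries (log2 fold change 0.36, adjusted p = 0.0262). Cytl1 was lower (−0.64, edgeR adjusted p = 0.355), and all 4 were at an unadjusted p under 0.05. They summed to 506, 505, 493 and 516 CPM in cKO and to 450, 465, 414 and 453 CPM in controls. These sums did not overlap, and cKO replicates 1 and 4 did not stand apart. Of 10 cardiomyocyte markers 4 were higher and 6 lower, with 0 past the threshold and 3 at an unadjusted p under 0.05.

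**Figure D5:**
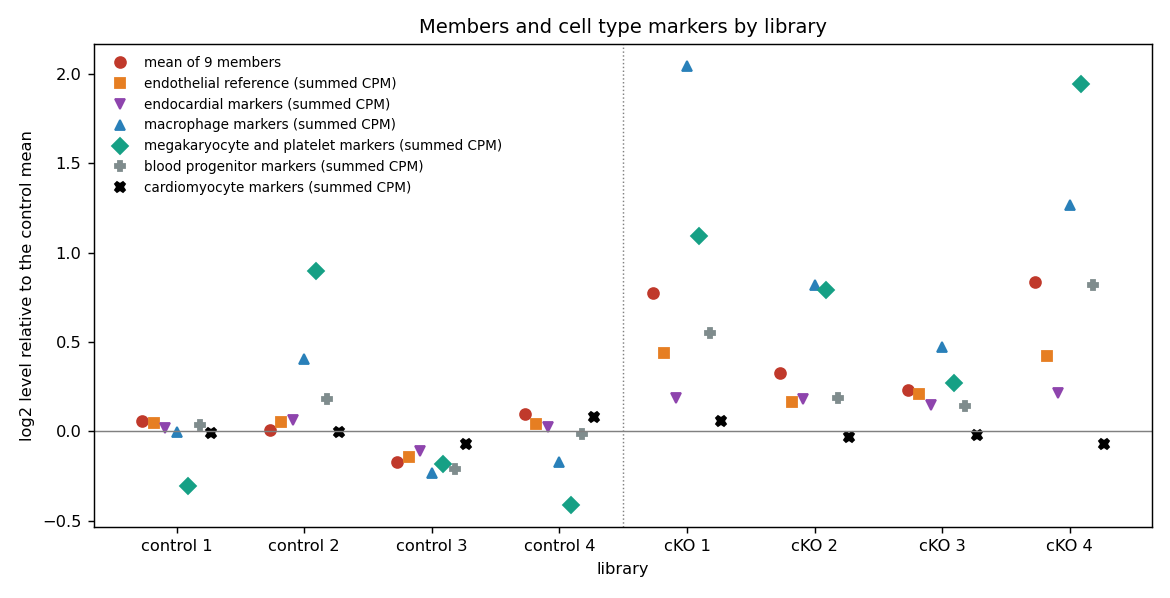
Log2 level relative to the control mean in each library, for the mean of 9 members (without Clec1a) and for summed CPM of cell type markers. The 9 include Cd34, picked for its rise. Replicates 1 and 4 of cKO are highest for the members, the endothelial reference, and the macrophage, platelet and blood progenitor markers. Platelet markers are also high in control replicate 2, and cardiomyocyte markers stay within 38060 to 42280 CPM.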

How the data were processed

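RNA from E10.5 ventricular tissue was measured in 4 Pkn2 cKO and 4 control libraries, grouped by their titles. Each gene symbol has 1 raw count per library in the deposited table, not normalized by the authors, beside deposited TPM values scaled by gene length; no other columns of per-sample values were present. Per the labels and methods, libraries were TruSeq poly(A) and reads passed through the nf-core/rnaseq workflow with GRCm39; the processing notes also name Trim Galore 0.6.7, HISAT2 2.2.1, StringTie 2.2.1 and featureCounts. The series text and the sample labels differ on read length. Of 36172 genes compared, 87.9% had a start in the TPM table at most 1000 bases from the GRCm38.p6 RefSeq start, and 3.27% from the GRCm39 one, so coordinates are given as GRCm38.

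The 26820 genes holding 8 or more counts in sum entered the quasi-likelihood test of edgeR 4.0.16 in R 4.3.3, with TMM scaling and genotype as the sole term. Benjamini-Hochberg adjustment covered all of them; standard errors are the log2 fold change over the square root of F, and log2 CPM used a prior count of 2. Ratios to the reference genes were compared by two-sided exact permutation over 70 groupings. The edgeR script was tested on simulated data. Alternatives were DESeq2 1.42.0, limma 3.58.1 (voom, and log2 TPM with pseudocounts of 1 and 0.1), the size factors of DESeq2 inside edgeR, a fit with a block for replicate number, filterByExpr or unfiltered genes, and each library left out.

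The members and lists were chosen with earlier results of these data known, and 1 gene of the sialomucin and selectin list is not reported here and was taken out of its counts. Named are all members, Pkn2, the genes past the threshold and defining genes of each list, and the genes of closest profile; further list genes (such as the catenins, Podxl, Acvrl1 and S1pr1) and the lectin neighbours of Clec1a were chosen after their values were seen. Replicate numbers were not used as pairs, as the labels do not state a pairing. Deviations of same-numbered libraries correlated at −0.19, −0.03, 0.01 and −0.14 over 14302 genes. Whether such libraries shared a litter or a preparation was not tested and cannot be read from these values. Pairs of libraries of 1 group differed by a chi-square of 14.5 to 39.1 per degree of freedom in cKO and 12.0 to 21.3 in control. These values were far above counting error, so all libraries were kept. The p-values weigh the difference between the groups against the spread among these libraries.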

Additional observations from a re-analysis of the deposited data

Results flagged for a closer look

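In 3 cases 1 of the 4 libraries of a group stood far from the others, with a gap to its neighbour that was an unusually large share of the group's range (Dixon's test at 95%). These concern the log2 ratio of a member to the endothelial reference genes. Cdh5 in cKO replicate 3 had a ratio of 1.76, where the other cKO libraries were at 1.98 to 1.99. Cd34 in cKO replicate 1 had a ratio of 1.02, against 0.41 to 0.51 in the others. Plvap in cKO replicate 1 had a ratio of 0.90, against 1.29 to 1.33. Both Cd34 and Plvap thus departed in the same library and in opposite directions. About 1 in 20 groups is marked in this way by chance, and 40 groups were read (10 genes, 2 groups, as CPM and as ratios). None of the CPM values themselves stood apart by this measure.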

How the results depend on the processing

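The 8 members chosen for their role were higher in cKO under each of the 16 alternatives tried, and of their 128 fold changes 0 changed sign, while 32 lost the call of the edgeR test and 13 gained one. The number of the 8 past the threshold was 4 as reported, 4 with DESeq2 size factors and 3 with filterByExpr or limma-voom. It was 7 with no filter (878 genes called in all, where 230 were called as reported), 7 with DESeq2 (867 genes), and 0 with limma on log2 TPM (2 genes with a pseudocount of 1, 5 with 0.1). With the replicate number as a replicate block it was 7 (380 genes), although the labels do not state that the numbers pair the libraries. With each library left out in turn, 0 to 7 of the 8 passed, and 67 to 744 genes in all. The causes were not tested. The Clec1a log2 difference was 0.81 on the log2(TPM + 1) scale, where a pseudocount of 1 exceeds the control level and understates the change.

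The ratios were also set against other members. Against all the others, a reference that includes Cd34 and Clec1a, picked for their rise, and is raised in cKO by that choice, the difference turned negative for Cdh5 (−0.20), Pecam1 (−0.26), Esam (−0.38), Emcn (−0.0247), Eng (−0.38) and Icam2 (−0.29), and that of Cd34 was 0.02. Against the other role-chosen members alone, added after the data were seen, it was negative for Pecam1 (−0.0588), Esam (−0.182), Eng (−0.183) and Icam2 (−0.0844). With each library left out in turn the Eng difference ranged from −0.00763 (without cKO replicate 4) to 0.0877. On the log2(TPM + 1) scale the Clec1a ratio was 0.49. Counting error limits Clec1a and Cldn5 most.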
